A study of Danio rerio with 4 samples.

Results

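The genes of oxidative phosphorylation were followed in brains of adult zebrafish kept at 28°C (normal) and after 10 days at 10°C (cold-acclimated, labelled as cold-stressed). The members were taken by the start of the gene symbol (nduf, sdha to sdhd, uqcr, uqcc, cyc1, cycs, cox4 to cox8, cox10 to cox19, or atp5), which takes in subunits of complexes I to V, cytochrome c and those assembly factors that carry such symbols. Assembly factors with other symbols are not members. This gave 95 of the 8793 genes that had a probe set with 1 gene symbol, and where a gene had several probe sets, the one of highest mean log2 signal stood for it. By role, 31 are subunits of complex I, 4 of complex II, 8 of complex III, 15 of complex IV and 18 of complex V, 1 encodes cytochrome c, and 18 encode assembly factors. The 18 of complex V include 2 genes for its inhibitor protein, which is not a subunit but is counted with the subunits throughout. The genes ndufa4a and ndufa4b, named after complex I, were counted with complex IV, to which their mammalian relative is now assigned. A further 2 probe sets whose annotation joins a matching symbol with another one, atp5fa1 with gcdha and ndufa9b with ndufa9a, were left out.

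Oxidative phosphorylation is the process by which mitochondria turn the energy of electrons taken from NADH and succinate into ATP. Complex I takes electrons from NADH and complex II from succinate, both pass them to ubiquinone, complex III hands them to cytochrome c, and complex IV delivers them to oxygen. Complexes I, III and IV pump protons while doing so, and complex V, the ATP synthase, uses the proton gradient to make ATP. The brain depends on this process for most of its ATP, much of which is spent on ion pumping and synaptic transmission. A few core subunits of complexes I, III, IV and V are encoded by mitochondrial DNA, and all others by the nucleus. None of the 26 symbols listed for mitochondrially encoded subunits was among the 8793 genes, so that every member described here is a nuclear gene.

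Total RNA was pooled from several brains for each 1-colour Affymetrix Zebrafish Genome Array, with both sexes in equal numbers in each group. Cold-acclimated fish had been brought from 28°C to 10°C at 1°C per hour, and no other treatment or genotype is given in the labels. Values of 4 arrays were analysed, called normal 1, normal 2, cold 1 and cold 2 as labelled. Normal 1 and cold 1 are called set 1 here, and normal 2 and cold 2 set 2. The methods describe 3 sets of RNA from separate acclimation experiments, and 2 arrays per condition were analysed here. The labels do not tie an array to an experiment.

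Arrays with the same label stood farther apart than the arrays of some pairs with different labels, and this holds for the members too. Among the 95 genes, 6 differed by at least 2-fold between normal 1 and normal 2 and 13 between cold 1 and cold 2. Only 1 differed by that much between cold 1 and normal 2, 4 between cold 1 and normal 1, and 5 each between cold 2 and either normal array. Over the 5982 genes kept by a filter on low signal (a mean log2 signal not under the 40th percentile of probe sets), 15.3% differed by at least 2-fold between the normal arrays and 11.7% between the cold arrays, against 2.22% between cold 1 and normal 2. The labels were kept as given, directions are those of the labels, and array signals are printed before ratios. The median signal ranged from 96.3 to 102 among the arrays, and no further scaling was applied.

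The members as a whole had a higher signal on cold 1 and normal 2 than on normal 1 and cold 2. After the mean of each gene over the 4 arrays was subtracted, the median of the 95 genes on the log2 scale was -0.17 on normal 1, 0.15 on normal 2, 0.17 on cold 1 and -0.16 on cold 2. In 47 of 95 members (49.5%) the 2 highest signals were those of cold 1 and normal 2, an order found in 26.1% of the 5982 kept genes. The reverse order, with normal 1 and cold 2 highest, was found in 5 members (5.26%) and in 23.9% of the kept genes. All members were read from the same 4 arrays and are not independent of each other, and these shares were not tested. Summed signals of the marker lists of neurons, astroglia, oligodendrocytes and red blood cells, given further on, were also highest on cold 1 and normal 2. Single markers of neurons, astroglia and oligodendrocytes did not all have this order. The part of these cell types in the order was not tested. In RNA of whole brains, fewer cells of a type and less RNA per cell cannot be told apart.

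**Figure D1:**
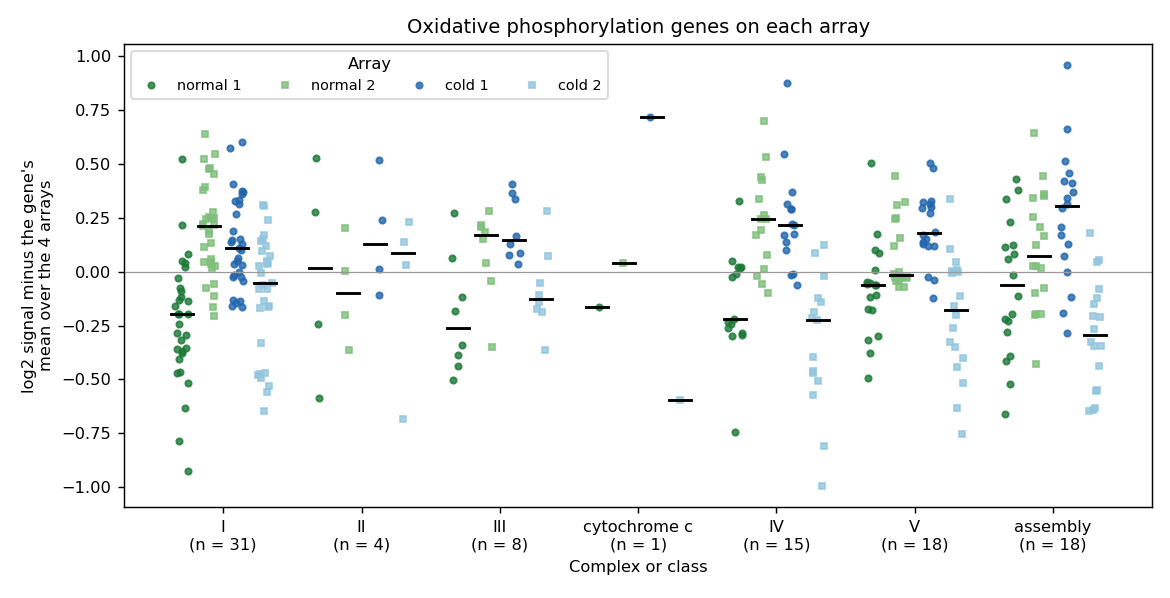
The vertical axis is the log2 signal of each gene minus its mean over the 4 arrays, the horizontal axis the complex or class, each point is 1 gene on 1 array, and black bars are medians. In complexes I, III and IV the medians of normal 2 and cold 1 lie above 0 and those of normal 1 and cold 2 below, and the 4 genes of complex II do not follow this order.

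Within set 1, 76 of the 95 members had a higher signal on cold 1 than on normal 1, and within set 2, 71 of 95 had a lower signal on cold 2 than on normal 2. Over the kept genes, 54.3% were higher and 45.7% lower in set 1, and 50.9% were higher and 49.1% lower in set 2. The median log2 ratio of cold to normal was 0.27 in set 1, against 0.06 for kept genes, and -0.36 in set 2, against 0.01. With only 1 array of each condition in a set, these ratios have no replicate and no p-value. Differences of at least 2-fold in set 1 were found in 4 members, all higher on cold 1, against 8.61% of kept genes, and in 0 members lower on cold 1, against 5.0%. In set 2 there were 0 members at least 2-fold higher on cold 2, against 2.49% of kept genes, and 5 lower, against 3.93%. The shift of the members was thus a shift of many genes by less than 2-fold, with no larger share of 2-fold differences than other genes had in set 1. These shares were not matched for brightness. Of the 76 subunits, the brighter 38 had 0 differences of 2-fold in either set. The dimmer 38 had 2 in set 1, higher on cold 1, and 4 in set 2, lower on cold 2. In both sets taken side by side, 61 of 95 were higher in set 1 and lower in set 2 (37.3% of kept genes), 9 the reverse, 15 higher in both and 10 lower in both.

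**Figure D2:**
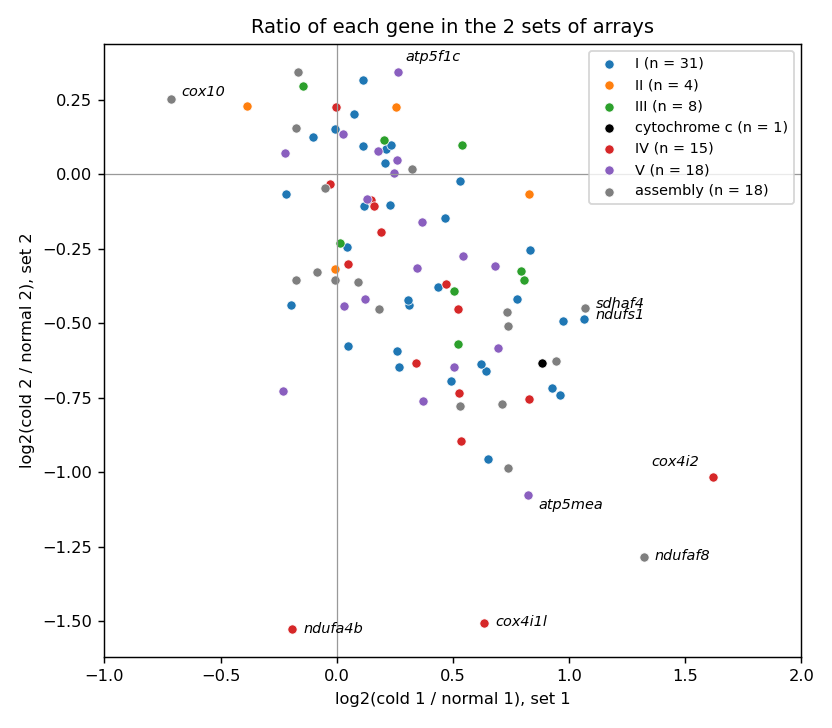
Each point is 1 of the 95 genes, with the log2 ratio of cold 1 to normal 1 on the horizontal and that of cold 2 to normal 2 on the vertical axis, coloured by complex. Most genes (61 of 95) lie at the lower right, higher on the cold array of set 1 and lower on that of set 2.

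Complex I, the NADH dehydrogenase, has the most subunits of all complexes, and 27 of its 31 measured genes had a higher signal on cold 1 than on normal 1. In set 2, 23 of 31 were lower on cold 2 than on normal 2. The median log2 ratio was 0.27 in set 1, with a range from -0.22 to 1.07, and -0.38 in set 2, with a range from -0.95 to 0.32. The gene ndufs1, which encodes the largest iron-sulfur subunit, had signals of 505 on normal 1, 1493 on normal 2, 1057 on cold 1 and 1066 on cold 2. The ratio of cold to normal was 2.09-fold in set 1 and 0.714-fold in set 2, and normal 1 was the lowest array. No other complex I gene differed by 2-fold within a set.

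The 5 measured core subunits of complex I, which carry its redox groups, had a median of the opposite sign to that of the accessory subunits in set 2. All 5 were higher on cold 1 than on normal 1, and 3 of 5 were higher on cold 2 than on normal 2, and their medians on the log2 scale were 0.23 in set 1 and 0.09 in set 2. For ndufv1, which binds NADH and flavin, the signals were 1773 on normal 1, 1850.5 on normal 2, 1917 on cold 1 and 2304 on cold 2. The iron-sulfur subunit ndufv2 had 2199.8, 3311, 2588 and 3542 on these arrays, and ndufs7, which holds the last iron-sulfur cluster before ubiquinone, had 2903, 3232, 3139 and 3451. Cold 2 was the highest array for each of these. The iron-sulfur subunit ndufs8a, with 495, 954, 761 and 614, instead had its highest signal on normal 2, as did ndufs1.

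Among the 26 accessory subunits of complex I, which surround the core and are needed for its assembly and stability, 22 were higher on cold 1 than on normal 1. In set 2, 21 of 26 were lower on cold 2 than on normal 2, with a median log2 ratio of -0.40. The gene ndufb5, a subunit of the membrane arm, had signals of 1660.3 on normal 1, 2531 on normal 2, 3227 on cold 1 and 1515 on cold 2. Another membrane arm subunit, ndufb10, had 1030.5, 1563, 1958 and 951 on these arrays, and ndufc1 had 922, 1435, 1448 and 741. In each of these 3 the order of arrays was the same, with cold 1 highest and cold 2 lowest. The bright genes ndufb9, with 3082, 2709, 3249 and 3116, and ndufa12, with 2522, 3159.8, 2955 and 2939, differed little between arrays. Their log2 ratios were 0.08 and 0.23 in set 1 and 0.20 and -0.10 in set 2.

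Complex II, succinate dehydrogenase, is also an enzyme of the TCA cycle, and its 4 measured genes showed no common order of arrays. The median of their log2 ratios was 0.12 (set 1) and 0.08 (set 2). The flavoprotein gene sdha, which encodes the subunit that oxidizes succinate, had signals of 1212 on normal 1, 2093 on normal 2, 2147 on cold 1 and 1999 on cold 2. Normal 1 was the lowest array and the other 3 lay close together. The iron-sulfur subunit gene sdhb had 2509.6, 2973, 2992 and 3479, a ratio of cold to normal of 1.19 in set 1 and of 1.17 in set 2. Both cold arrays lay above both normal arrays for sdhb, by a margin of less than 1% between cold 1 and normal 2. Of the membrane anchor subunits, sdhc had 4764, 3428, 3649.6 and 4019, highest on normal 1, and sdhdb had 937, 505, 933 and 405, higher on the arrays of set 1 than on those of set 2.

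In complex III, the cytochrome bc1 complex, 7 of 8 genes were higher on cold 1 than on normal 1, and 5 of 8 lower on cold 2 than on normal 2. Complex III had the highest set 1 median of the 5 complexes, 0.51 on the log2 scale, and a set 2 median of -0.28. The small subunit gene uqcrb had signals of 2506 on normal 1, 3945 on normal 2, 4379.7 on cold 1 and 3083 on cold 2. A similar order was seen for uqcrq, with 1853, 2855, 2628 and 2176, and for the hinge protein gene uqcrh, with 1432, 1876, 2059 and 1266, where cold 1 and normal 2 were the highest arrays. The subunits that carry electrons differed less: uqcrfs1, the Rieske iron-sulfur protein, had 2873, 3023, 3305 and 3274, and cyc1, cytochrome c1, had 1828, 1799, 1846 and 1534. The core protein gene uqcrc1 had 2640.1, 1715, 2391 and 2108, with its highest signal on normal 1, and was the only gene of complex III lower on cold 1 than on normal 1.

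The gene cycsb encodes cytochrome c, which carries electrons from complex III to complex IV and starts apoptosis when it leaves the mitochondrion. Its signals were 2053 on normal 1, 2369 on normal 2, 3788 on cold 1 and 1527 on cold 2. Cold 1 was the highest and cold 2 the lowest array, so that the conditions overlapped, with a ratio of 1.84-fold in set 1 and 0.644-fold in set 2.

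Complex IV, cytochrome c oxidase, had the lowest median of the 5 complexes in set 2, where 14 of 15 genes were lower on cold 2 than on normal 2. Its median log2 ratio was -0.45 in set 2, with a range from -1.53 to 0.22, and 0.34 in set 1, where 12 of 15 were higher on cold 1. Of the 4 subunits whose signal on cold 2 was below that on normal 2 by 2-fold or more, 3 belong to complex IV and 1 to complex V. The regulatory subunit gene cox4i2, whose mammalian relative is induced by low oxygen, had signals of 454 on normal 1, 1032 on normal 2, 1394 on cold 1 and 511 on cold 2. Cold 1 and normal 2 were the high arrays, with a ratio of 3.07-fold in set 1, the largest of all members, and 0.495-fold in set 2. The related gene cox4i1l had 238, 463, 369.5 and 163 on these arrays, or 1.55-fold in set 1 and 0.352-fold in set 2. The gene ndufa4b had 118, 135, 103 and 47.0, or 0.876-fold in set 1 and 0.347-fold in set 2, and its signal on cold 2 did not reach the median signal of that array.

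Among the small subunits that surround the catalytic core of complex IV, the 3 brightest were cox7c, cox6a1 and cox8a. The signals of cox8a were 5441 on normal 1, 5425 on normal 2, 5339 on cold 1 and 5305 on cold 2, a ratio of 0.981-fold in set 1 and 0.978-fold in set 2. The gene cox7c had 7874, 8037, 8155 and 6519 on these arrays, with cold 2 lowest and a set 2 ratio of 0.811-fold, and cox6a1 had 5173, 6894, 5782 and 6406, with normal 2 highest. Among the others, cox7b had 3146, 4535, 5584 and 2692, cox6c had 2549, 3790.2, 3666 and 2279 and cox7a2a had 3322, 4900.4, 4763 and 3580.3. In these 3 genes, cold 1 and normal 2 had the 2 highest signals, as in 9 of the 15 genes of complex IV.

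Complex V, the ATP synthase, had 16 of 18 genes higher on cold 1 than on normal 1 and 12 of 18 lower on cold 2 than on normal 2. On the log2 scale the medians of its ratios were 0.26 (set 1) and -0.29 (set 2). In the catalytic F1 part, atp5f1b, the beta subunit that makes ATP, had signals of 5127 on normal 1, 5357 on normal 2, 6129 on cold 1 and 5537 on cold 2. The gene atp5f1c, the gamma subunit that turns inside it, had 2804, 3443, 3364 and 4365 on these arrays, the largest log2 ratio of any subunit in set 2 (0.34), and cold 2 was its highest array. The small central stalk subunits had the opposite sign in set 2, with 2132, 2608, 2760.4 and 1539.5 for atp5f1e and 1698, 1735, 1733 and 1276 for atp5f1d, and cold 2 was the lowest array of both.

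The c-ring genes of complex V, whose products form the rotor that protons turn, had the smallest range of log2 ratios among its parts. The 3 genes atp5mc1, atp5mc3a and atp5mc3b had log2 ratios from 0.03 to 0.25 in set 1 and from -0.08 to 0.13 in set 2. Those of the 6 accessory subunits of the membrane part ranged from -0.22 to 0.82 in set 1 and from -1.07 to 0.07 in set 2. The peripheral stalk gene atp5pd had signals of 2432 on normal 1, 3260.1 on normal 2, 3451 on cold 1 and 2081 on cold 2, while atp5pb of the same stalk had 3776, 3735, 4267 and 3941. The subunit e genes atp5mea, with 724, 1225, 1279 and 582, and atp5meb, with 1810.2, 1578, 1968 and 1181, both had their highest signal on cold 1 and their lowest on cold 2. Of the inhibitor genes, whose product keeps the enzyme from running backwards, atp5if1a had 1419, 2472, 2272 and 1997 and atp5if1b had 1528, 1058, 1303 and 639.6. Normal 1 was the lowest array for the former and the highest for the latter.

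**Figure D3:**
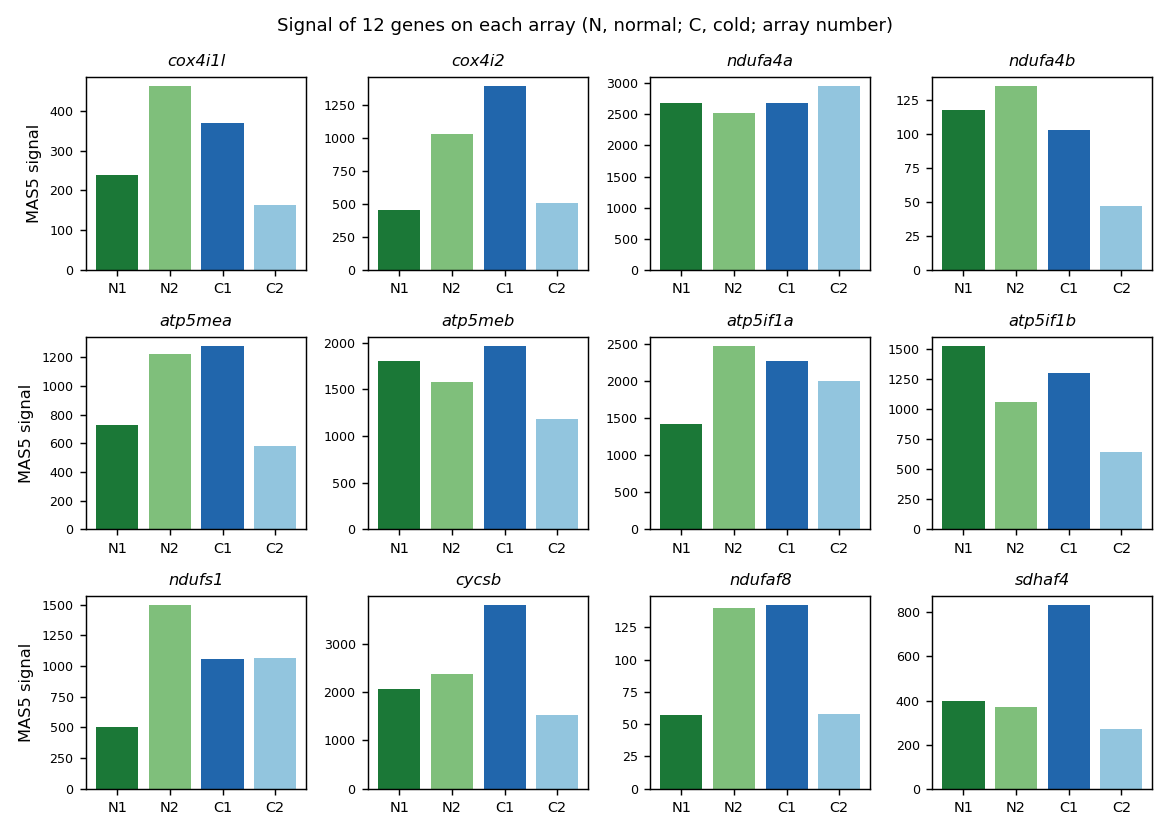
Bars give the signal, on a linear axis from 0, of 12 members on normal 1 (N1), normal 2 (N2), cold 1 (C1) and cold 2 (C2), 1 array per bar and with no error. In cox4i2, cox4i1l, atp5mea and ndufaf8 the bars of N2 and C1 are the tallest, whereas the 4 bars of ndufa4a lie between 2528 and 2953.

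The 18 assembly factors, most of which build the complexes and are not part of the finished enzymes, had medians of 0.25 (set 1) and -0.40 (set 2) for the log2 ratio. With a filter at the 60th percentile of the mean signal, which leaves out the dimmer of them, the set 1 median was 0.092. In set 1, 11 of 18 were higher on cold 1, and in set 2, 14 of 18 were lower on cold 2. All 6 complex I assembly factors were lower on cold 2 than on normal 2. Among them ndufaf8 had signals of 56.7 on normal 1, 140.1 on normal 2, 142 on cold 1 and 57.6 on cold 2, with cold 1 and normal 2 about equal and more than 2-fold above the other arrays. Its signals on normal 1 and cold 2 did not reach the median signals of those arrays. The complex II assembly factor gene sdhaf4 had 396, 372, 831 and 273 on these arrays and was high on cold 1 alone. The brightest assembly genes, cox7a2l of the respiratory supercomplexes, with 1700.4, 1887, 1508 and 1475, the copper chaperone gene cox17, with 1145, 1179, 1013 and 1312, and the complex III factor gene uqcc3, with 1363, 803, 1215 and 1019, stayed within 2-fold. The heme O synthase gene cox10, with 625, 405, 381 and 483, was the member with the lowest log2 ratio in set 1 (-0.71). One assembly factor, sdhaf3, did not pass the filter on low signal, and the other 94 members did.

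Subunits of the redox and F1 parts had both signs in set 2. These are 13 subunits of complexes I, II, III and V, namely iron-sulfur, flavin and heme proteins and the F1 part with its central stalk. In set 2 they had log2 ratios from -0.76 (atp5f1e) to 0.34 (atp5f1c) with a median of 0.05, and 7 of them were higher on cold 2. The other 48 subunits of the same complexes had log2 ratios from -1.07 to 0.30 with a median of -0.32, and 12 were higher. In set 1 the medians were 0.25 and 0.31, with 13 of 13 and 39 of 48 higher on cold 1. By mean signal, the brighter 38 of the 76 subunits had a median of 0.23 in set 1 and -0.10 in set 2, and the dimmer 38 had 0.48 and -0.46. These groups were made after the values were seen, and no test was made between them.

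Paralogues of a subunit did not always share the order of arrays. The genes cox5aa and cox5ab had log2 ratios of 0.47 and 0.34 in set 1 and of -0.37 and -0.63 in set 2. For cox6b1 and cox6b2 these were 0.53 and 0.19 in set 1 and -0.90 and -0.20 in set 2, the same sign with a smaller size in the brighter gene. In contrast, ndufa4a and ndufa4b differed in sign in set 2, with 0.22 and -1.53. So did uqcrc2a and uqcrc2b, with 0.10 and -0.32, whereas in set 1 they had 0.54 and 0.79. For the acyl carrier protein genes ndufab1a and ndufab1b the ratios were 0.05 and 0.47 in set 1 and -0.58 and -0.15 in set 2. Further probe sets of ndufab1a had -0.01 and -0.24 in set 1 and -0.35 and -0.60 in set 2, so its set 1 sign depended on the probe set. Probe sets of close paralogues can share target RNA, which was not checked here.

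With the labels as given, 0 of the 94 members tested differed between cold-acclimated and normal brains at an adjusted p under 0.05 from limma, as did 0.00% of all 9301 probe sets tested. At an unadjusted p under 0.05 the counts were also 0 higher and 0 lower, where 0.194% of all probe sets were higher and 0.301% lower. In either direction this was 46 of 9301 probe sets (0.495%), far fewer than p-values without any change would give at this threshold. Counts of 0 therefore do not show that the members were unchanged. The median log2 fold change was 0.03 for all 95 members and 0.04 for kept genes. It was 0.06 in complex I, 0.08 in complex II, 0.12 in complex III, -0.00 in complex IV, 0.04 in complex V and -0.04 in the assembly factors. The standard error of a single member from limma lay between 0.17 and 0.64 on the log2 scale, with a median of 0.36. Only ndufa4b, atp5if1b, sdha and atp5f1c had a log2 fold change larger than its standard error. The median over the members was -0.13 without normal 1, 0.17 without normal 2, -0.14 without cold 1 and 0.19 without cold 2, so that its sign depended on which array was left out.

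None of the largest labelled differences of single members passed the test. The lowest log2 fold change was that of ndufa4b (-0.86, standard error 0.41, adjusted p = 1.0 from limma), followed by atp5if1b (-0.48, standard error 0.48) and cox4i1l (-0.43, standard error 0.56). The highest were those of sdha (0.38, standard error 0.37, adjusted p = 1.0 from limma), uqcrc2a (0.32, standard error 0.39) and sdhaf4 (0.31, standard error 0.59). Both cold arrays lay above both normal arrays in 10 members, against 8.78% of kept genes, and below them in 5, against 5.47%. The 10 include atp5f1b, atp5mc3b, ndufv1, sdhb and uqcrfs1, and the 5 are cox7a2l, cox8a, ndufa10, ndufa4b and ndufaf4. With shares of 10 and 5 among 95, the members stood near the other genes in this count.

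**Figure D4:**
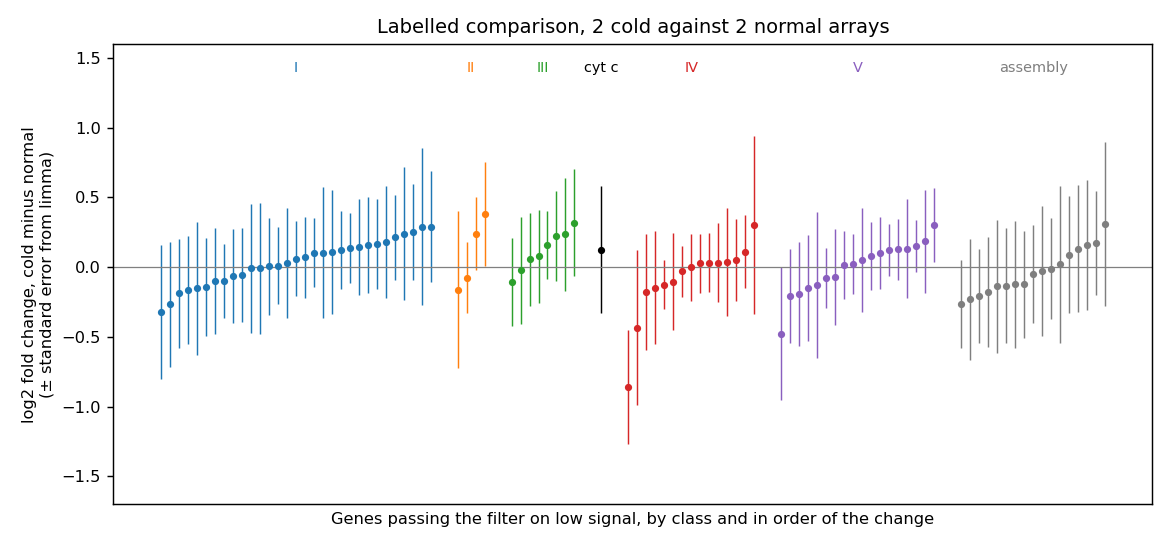
Points are the log2 fold change of cold minus normal for the 94 members that passed the filter, ordered by class and size, with bars of 1 standard error from limma (2 arrays per condition). Almost all bars cross 0, and the lowest point is ndufa4b at -0.86.

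Other genes of mitochondria and related metabolism were read from lists chosen beside the members. In the labelled comparison 0 of them passed an adjusted p of 0.05 from limma. For 21 measured genes listed under the TCA cycle and pyruvate dehydrogenase, the medians of the log2 ratio were 0.36 (set 1) and -0.08 (set 2). Among these, mdh1aa had signals of 7466 on normal 1, 7710.4 on normal 2, 7534 on cold 1 and 8231 on cold 2, and idh2 had 3342, 3435, 4275 and 4337. The list is wider than the mitochondrial enzymes that supply NADH to the chain, and neither mdh1aa nor idh2 is taken as one. The 10 genes for carriers and the outer membrane had medians of 0.20 and 0.02, with 3433, 3479.7, 3584 and 4119.7 for the channel gene vdac1 and 2696, 3416, 4190.4 and 3281 for the phosphate carrier gene slc25a3b. The 11 genes of quinone synthesis and the electron transfer flavoprotein had 0.09 and -0.01, with 992, 1190.1, 956 and 1271 for etfa and 825, 856, 904 and 946 for etfb. For 12 assembly genes outside the symbol rule the medians were 0.32 and 0.01, and higd1a had 1836, 755, 658 and 971 and lrpprc had 277, 308, 336 and 464. The lowest set 2 median of these 4 lists was -0.08, or -0.11 over the genes that passed the filter, against -0.36 for the members, a difference that was not tested.

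Regulators of mitochondrial genes had medians of the opposite sign to those of the members in both sets. Of 13 measured regulators, 2 were higher on cold 1 than on normal 1 and 7 higher on cold 2 than on normal 2, with median log2 ratios of -0.41 in set 1 and 0.26 in set 2. Of these, 3 did not pass the filter on low signal, and over the 10 that did, the medians were -0.38 and 0.13, with 5 higher and 5 lower on cold 2. The transcription factor gene nrf1, which activates many nuclear genes of the respiratory chain, had signals of 509.7 on normal 1, 262 on normal 2, 277 on cold 1 and 653 on cold 2, highest on cold 2 and normal 1. The gene yy1b, of a factor that also binds promoters of such genes, had 552, 621, 511 and 753. Uncoupling protein genes, whose products in mammals let protons return without making ATP or carry other ions, had 546, 356, 307 and 673 for ucp2 and 765, 1634, 857 and 1751 for ucp1. For ucp1, both arrays of set 2 were about 2 times as bright as those of set 1. Of 5 uncoupling genes, 3 passed the filter, and these 3 were higher on cold 2 than on normal 2, while 1 of them was higher on cold 1 than on normal 1.

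Markers of brain cell types were read on every array, and some of them moved with the members. Of 10 neuronal markers 8 were measured, and their summed signal was 18875 and 26026 on normal 1 and 2 and 29531 and 19269 on cold 1 and 2. In set 1 all 8 were higher on the cold array and in set 2 all 8 were lower, as most members were. Not all 8 had cold 1 and normal 2 as the highest arrays. The exceptions were elavl3, with 1235, 869, 2188 and 719, elavl4, with 1313, 1170, 1565 and 575, and syt1a, with 2127, 3007, 2377 and 2840. The 5 of 8 red blood cell markers on the array summed to 13705 and 20823 on the normal and 19657 and 11960 on the cold arrays, also highest on normal 2 and cold 1. All 5 were higher in set 1 and lower in set 2, 4 of them by at least 2-fold in each set. Their median log2 ratios were 1.53 and -1.43, against 0.58 and -0.29 for the neuronal markers. For 9 of 12 muscle markers the sums were 1193 and 1293 on the normal and 4446 and 1376 on the cold arrays. This sum was led on cold 1 by the parvalbumin gene pvalb2, of fast muscle, with 76.1, 81.2, 1527 and 108. In set 1, 5 of the 9 muscle markers differed by at least 2-fold, each brighter on cold 1. Not all muscle markers had this pattern. The signals of acta1a were 106, 121, 89.2 and 115 and those of tnni2a.4 were 89.6, 84.3, 81.9 and 88.7, both lowest on cold 1. The marker tnnt3a did not pass the filter on low signal. Summed signals of the 6 of 8 astroglial markers were 14116 and 19633 on the normal and 19286 and 18025 on the cold arrays. Of these 6, 4 were higher in set 1 and lower in set 2, and gfap, with 1069, 357, 376 and 666, was the reverse. The 4 of 8 oligodendrocyte markers summed to 9467 and 10201, and 11456 and 8775. This sum was led by mbpa, with 8852, 9454, 10605 and 8020, while olig2, sox10 and mbpb had other orders of arrays. The 7 of 8 markers of microglia and leukocytes summed to 5699 and 7220, and 5788 and 6598. This sum was led by cd74a, with 2279, 4331, 3569.8 and 2985, whereas 5 of the 7 markers were lower on cold 1 than on normal 1 and 5 of 7 higher on cold 2 than on normal 2, with median log2 ratios of -0.24 and 0.32. The 4 of 5 epidermal markers summed to 1230.35 and 1517 on the normal and 1641 and 2239 on the cold arrays. Most of this difference came from krt5, with 114, 249, 496 and 914. The brightest marker, krt8, had 986, 1115, 981 and 995, krt4 had 78.9, 117, 121 and 160, and krt17 did not pass the filter on low signal. No measured marker was listed at 0, which does not show that each was expressed. Among the markers of microglia and leukocytes, csf1ra and ptprc did not pass the filter on low signal. The part of these cell types in the differences between arrays was not tested.

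**Figure D5:**
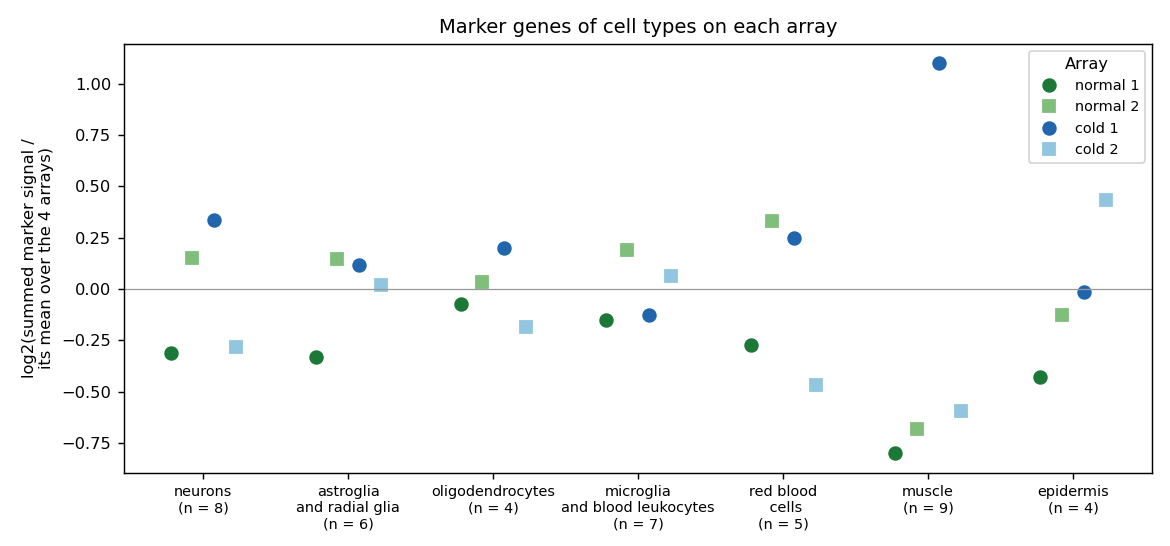
Points give the summed signal of each marker list on each array relative to its mean over the 4 arrays, on a log2 axis, with the number of measured markers below each list. The sums for neurons, astroglia, oligodendrocytes and red blood cells are highest on normal 2 and cold 1, as were 47 of the 95 members. The oligodendrocyte sum is led by mbpa, and the muscle sum is high on cold 1 alone.

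RNA quality controls of 2 genes were read on the 4 arrays. The ratio of the 3′ to the 5′ control probe set of gapdh was 1.16 on normal 1, 1.25 on normal 2, 0.968 on cold 1 and 1.35 on cold 2. The cold arrays were thus the lowest and the highest. That of the muscle actin control acta1 was 2.12 to 2.41 on 3 arrays and 12.2 on cold 1, where the summed signal of the muscle markers was high. The 5′ probe set of acta1 had 81.2 on normal 1, 76.7 on normal 2, 77.1 on cold 1 and 82.8 on cold 2. These signals lay under the median of each array, and the 3′ probe set had 180, 185, 938 and 175. The acta1 ratio thus followed the 3′ signal and cannot be read as RNA quality. The part of these differences in the results was not tested.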

How the data were processed

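Brain RNA was hybridized to Affymetrix Zebrafish Genome Arrays. The authors deposited a table with 1 linear intensity for each of 15617 probe sets and each array, made with MAS5 according to the submitters' processing notes. Its scaling target and filters were not given in the sources used. Scaling of arrays to a common mean, where applied, hides a change shared by most transcripts. With 2% of the probe sets trimmed at each end, the mean signal was 241 on normal 1, 248 on normal 2, 254 on cold 1 and 250 on cold 2. The number of arrays, 2 per condition, limits the precision.

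From the deposited intensity, log2 values were taken, control probe sets were left out, and a filter at the 40th percentile of the mean log2 signal kept 9301 of 15502 probe sets. These were tested without pairing in limma 3.58.1 (R 4.3.3), using lmFit and then eBayes with an intensity trend. Benjamini-Hochberg adjustment ran over all 9301, with a threshold of 0.05. The code was tested on simulated data, where the check was on the size of the estimated change at a spread smaller than that of the arrays. The check did not cover how many changes are called. The SAM comparison of the study's methods was not run, since it rests on relabelled samples. Symbols came from the platform annotation.

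Members, lists and groups of subunits were chosen with earlier results of these data known. Members named are the 3 brightest of each class, the 4 with the largest ratio in each set, and paralogues, and the 2 brightest genes of each further list other than the cell markers. Others were named after their values were seen. The alternatives tried were no filter or one at the 60th percentile, quantile normalization or median centring, a pseudocount of 16, the mean of all probe sets of a gene, no variance trend, the array number as a block and leaving out each array in turn.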

Additional observations from a re-analysis of the deposited data

Results flagged for a closer look

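The median log2 ratio of cold to normal over the 95 members was 0.27 in set 1 and -0.36 in set 2. It is listed because the sign of the same contrast differed between the sets, which join arrays by number only. The labels do not tie an array to an experiment. With the numbers crossed, the median log2 difference over the members was -0.05 for normal 2 minus cold 1. It was 0.0013 for normal 1 minus cold 2. Each set holds 1 array per condition, so the difference between the sets was not tested.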

How the results depend on the processing

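With 2 arrays per condition, 0 of the members passed an adjusted p of 0.05 from limma in any alternative run, and at an unadjusted p under 0.05 the count was 0 except without cold 1 and with the numbers crossed, where it was 1 each. With the array number as a replicate block the count of members called was 0, and the block changed no call. The deviations of arrays 1 from the means of their conditions had a correlation of -0.30 over 9301 probe sets and of -0.06 over the 94 members tested. With the numbers crossed as a block, an alternative chosen after seeing the data, 0 members and 1 of all probe sets were called. The medians of all members in each set kept their sign under every scaling, pseudocount, filter and choice of probe set tried, from 0.21 to 0.27 in set 1 and from -0.36 to -0.32 in set 2. For complex II in set 1 the median was 0.12, and 0.055 with quantile normalization and 0.059 with median centring. For assembly factors in set 1 it was 0.25, and 0.092 with the filter at the 60th percentile and 0.15 with quantile normalization. The number of members at least 2-fold lower in set 2 was 5, and 3 with the filter at the 60th percentile, which tests fewer genes.

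Leaving out each array in turn gave labelled medians from -0.14 to 0.19 for all members, from -0.18 to 0.22 for complex I, 0.024 to 0.28 for complex II, -0.07 to 0.28 for complex III, -0.29 to 0.20 for complex IV, -0.15 to 0.21 for complex V and -0.30 to 0.27 for assembly factors. The log2 fold change ranged from -0.014 to 0.77 for sdha, from -0.025 to 0.66 for uqcrc2a, from -0.49 to 1.11 for sdhaf4, from -0.99 to 0.036 for atp5if1b and from -1.02 to 0.15 for cox4i1l, and that of ndufa4b from -1.42 to -0.29. The cause was not tested.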

Other observations

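For 7 members the array holds more than 1 probe set with that symbol, and the 8 further probe sets can be set beside the ones used. Their log2 ratio had the sign of the probe set used in 6 of 8 cases in set 1 and in 7 of 8 in set 2. The exceptions in set 1 were the further probe sets of ndufab1a, and in set 2 that of uqcrc2a. For ndufaf1, a complex I assembly factor, the further probe set had signals of 99.5 on normal 1, 196 on normal 2, 301 on cold 1 and 124 on cold 2, beside 157, 289, 302 and 188 at the one used. For cox10 it had 211, 124, 132 and 126, beside 625, 405, 381 and 483. Of the 8, 5 passed the filter on low signal.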
